A study of Gallus gallus with 2 samples.

Results

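The genes for the factors of translation initiation, elongation and termination were compared between wild-type and PTIP deficient DT40 cells. Genes entered by their symbol in the platform annotation alone, which had to begin with EIF1 to EIF6, EEF1 or EEF2 or be ETF1 or GSPT1, and no signal was used to choose them. Of 13009 genes on the array, 55 met this rule, with 98 probe sets between them. Where a gene had several probe sets, the brightest, by its mean log2 signal over both arrays, represented it. No probe set was annotated as GSPT1, and 1 probe set whose annotation joins EIF3D with a second gene was not assigned to either. DT40 is an established chicken B cell line derived from the bursa of Fabricius. The cells compared were a wild-type clone and a PTIP deficient clone with the genotype PTIP-/-/-. PTIP, the product of PAXIP1, is a nuclear protein known from histone methyltransferase complexes and the response to DNA damage. Cultures of both were kept at 39°C, and total RNA of each went onto 1 Affymetrix chicken genome array. With 1 array per genotype there was no replicate check, no test between genotypes exists, and a difference between these 2 clones cannot be told apart from an effect of PTIP. Nor can the arrays show whether the clones differed in cell number or in RNA per cell.

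Initiation begins when eIF2 carries the initiator tRNA to the small ribosomal subunit, together with eIF1, eIF1A, eIF3 and eIF5, while the eIF4 factors bind the mRNA cap, unwind the leader and recruit that complex. GTP on eIF2 is restored by the exchange factor eIF2B, and kinases that phosphorylate eIF2 alpha slow this step under stress. In elongation, eEF1A delivers aminoacyl-tRNA and is recharged by the eEF1B subunits, eEF2 moves the ribosome along the mRNA, and eRF1 releases the finished chain. Proliferating lymphoid cells express most of these genes at high levels.

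Signals are the authors' scaled linear intensities, and a log2 ratio is that of the PTIP deficient over the wild-type signal. A gene was called measured where both signals reached 31.0, percentile 40 of all probe sets that are not manufacturer controls. Signals below 131.5, the highest among 57 reporter probe sets outside 1 bright one, are named as dim. PAXIP1 itself gave 1045 in the wild-type array against 593 in the PTIP deficient array (log2 ratio -0.82), and its 2 other probe sets stayed under the floor. Where its probes lie relative to the mutated alleles was not known here, so this value is a limited check of the labels. Of 6 B cell markers, 4 exceeded 131.5 in both arrays. Among them was CD79B, a chain of the B cell receptor, at 9437 in wild-type cells against 3732 in PTIP deficient cells. BLNK, an adaptor of B cell receptor signalling, was looked up by name in the gene annotation. It led to a gene labelled SH2D6 on the array, at 8140 and 8895, whose identity was not checked further. BLK, a B cell kinase, was under the floor in both arrays, and PAX5, a B cell transcription factor, was dim at 96.7 and 121.5. Of 6 T cell markers, CD3D exceeded 131.5 in both arrays (8831 and 15919). CD8A (78.2 and 563.0) and CD5 (73.3 and 302.7) did so in PTIP deficient cells only. CD3E (46.5 and 45.5) and ZAP70 (53.3 and 45.3) were dim in both arrays, and CD4 was under the floor in both. The summed signal of the B cell markers was 25807 in wild-type cells against 18398 in PTIP deficient cells. That of the T cell markers was 9088 in wild-type cells against 16881 in PTIP deficient cells, and CD3D made up most of it in each array. The markers of macrophages and granulocytes reached at most 225.4 (4 genes), those of erythroid cells and thrombocytes 72.0 (4 genes) and those of mesenchymal and epithelial cells 205.6 (4 genes); the summed signals were 377.3 and 238.4, 183.5 and 155.2, and 264.7 and 418.4 in wild-type and PTIP deficient cells. The part of these marker differences in the values below was not tested.

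Translation factor genes differed little in signal between the clones. None of the 53 measured genes was 2-fold apart in either direction, whereas among all 9165 measured genes 5.03% were higher by that factor in PTIP deficient cells and 4.46% lower. At the bar of 1.5-fold, 4 of 53 were higher and 2 of 53 lower, against 13.1% and 11.5% of all measured genes. This second bar was chosen with earlier results of these data known. The log2 ratios ran from -0.88 to 0.90 with a median of 0.07 and an interquartile range of -0.09 to 0.25. Over all measured genes the median was 0.03 and the interquartile range -0.28 to 0.32. A log2 ratio above 0 was found in 29 of 53 translation factor genes and in 52.6% of all measured genes. The 4 genes that were at least 1.5-fold higher were EIF2B5, EIF6, EIF5A2 and EIF4E2, and the 2 lower genes, EEF1A2 and EIF4E1B, were dim in both arrays, so that no difference is read from them. Of 50 genes that were dim in neither array, 4 were higher by 1.5-fold and 0 lower, against 9.52% and 8.44% of the 6658 genes that met the same bar, and none differed by 2-fold, against 3.05% higher and 2.79% lower.

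**Figure D1:**
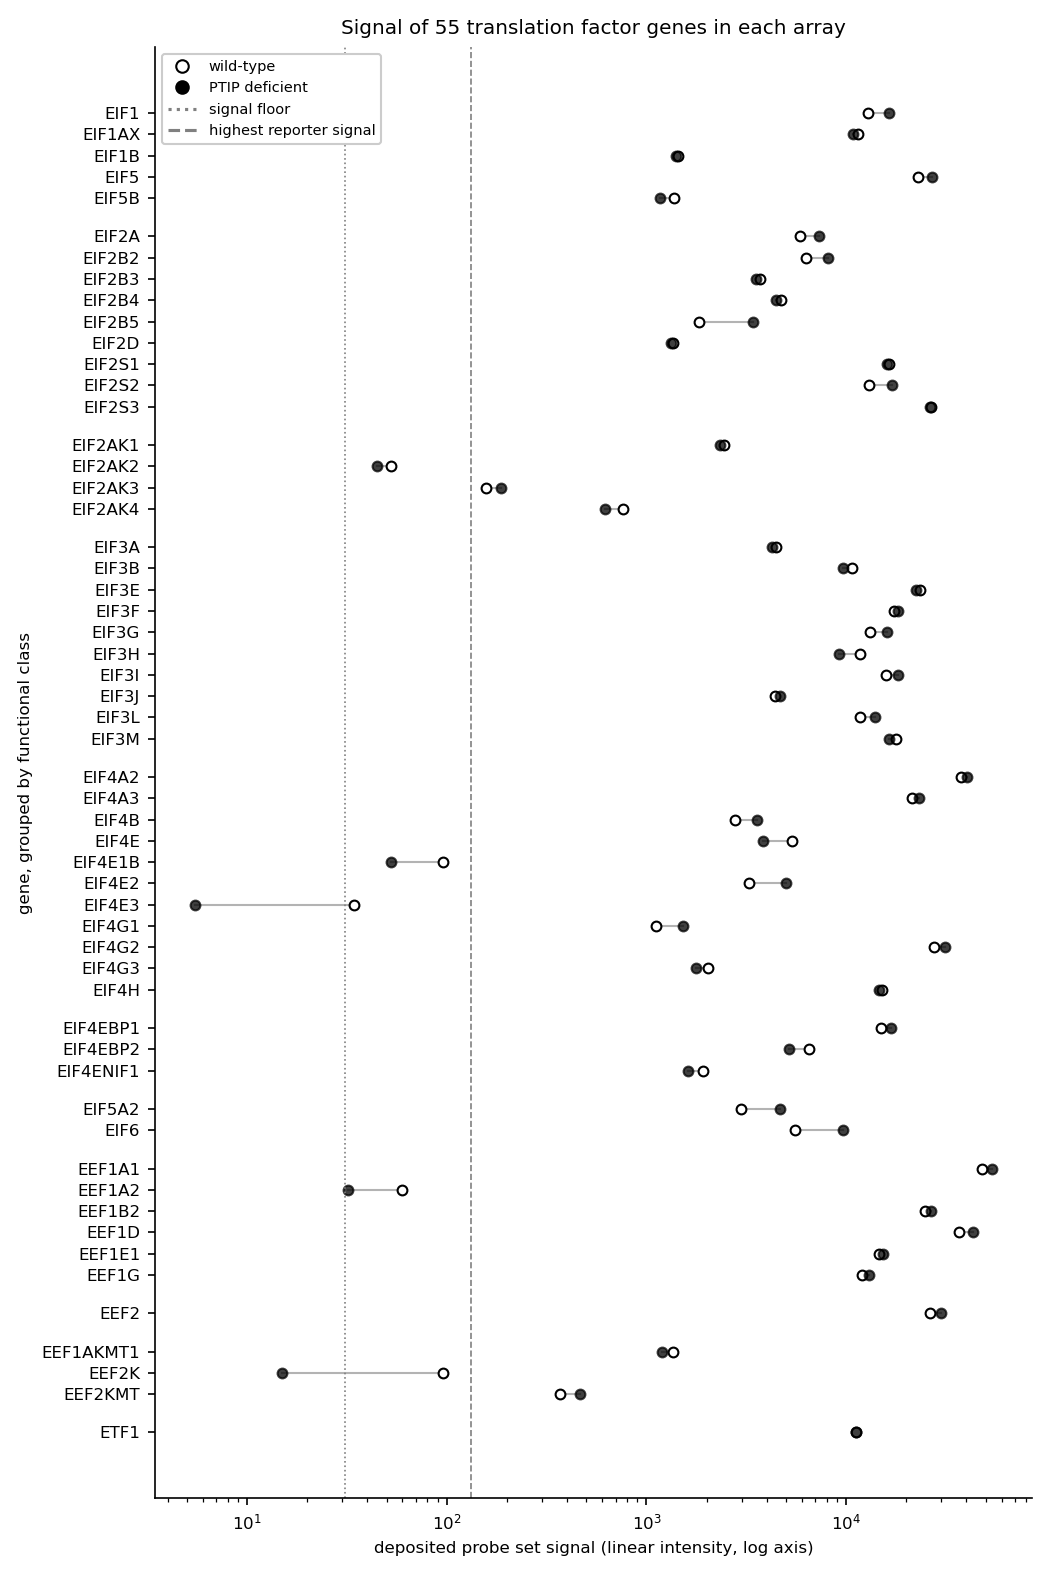
Deposited signal (linear intensity, log axis) of the brightest probe set of each of the 55 genes in wild-type (open circles) and PTIP deficient cells (filled circles), by functional class; the dotted line is the floor of 31.0 and the dashed line the highest reporter signal of 131.5. Signals of different genes come from different probes and are not comparable with each other; the pairs of circles lie close together except for EIF2B5, EIF4E2, EIF5A2 and EIF6 and for the dim genes EIF4E1B, EIF4E3, EEF1A2 and EEF2K.

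Most of these genes are bright, and bright genes as a whole had a narrower spread. Of the 53 measured genes, 40 lay in the brightest quartile of measured genes (geometric mean signal of at least 2208). In that quartile the SD of the log2 ratio was 0.40 over 2292 genes and 0.29 over the 40 translation factor genes, and 5.76% of all its genes were at least 1.5-fold higher and 4.89% lower, against 4 and 0 of the 40. The 8 translation factor genes of the next quartile had a median of -0.19, with 1 of 8 above 0, against a median of 0.0040 and 50.5% above 0 over all genes of that quartile. In the brightest quartile the median was 0.11 and 26 of 40 were above 0, against 0.02 and 54.0% of all genes of that quartile. Of the transcripts added as hybridisation controls, 27 of 27 probe sets were higher in the PTIP deficient array at a median log2 ratio of 0.30, and the 36 probe sets of the labelling controls had a median of 0.08. Their part in the ratios of the genes was not tested. Of the 53 genes, 48 kept the sign of their log2 ratio under quantile normalization, loess and median centring; the 5 others, EEF1A1, EEF1B2, EIF3F, EIF4A2 and ETF1, had log2 ratios of at most 0.17.

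**Figure D2:**
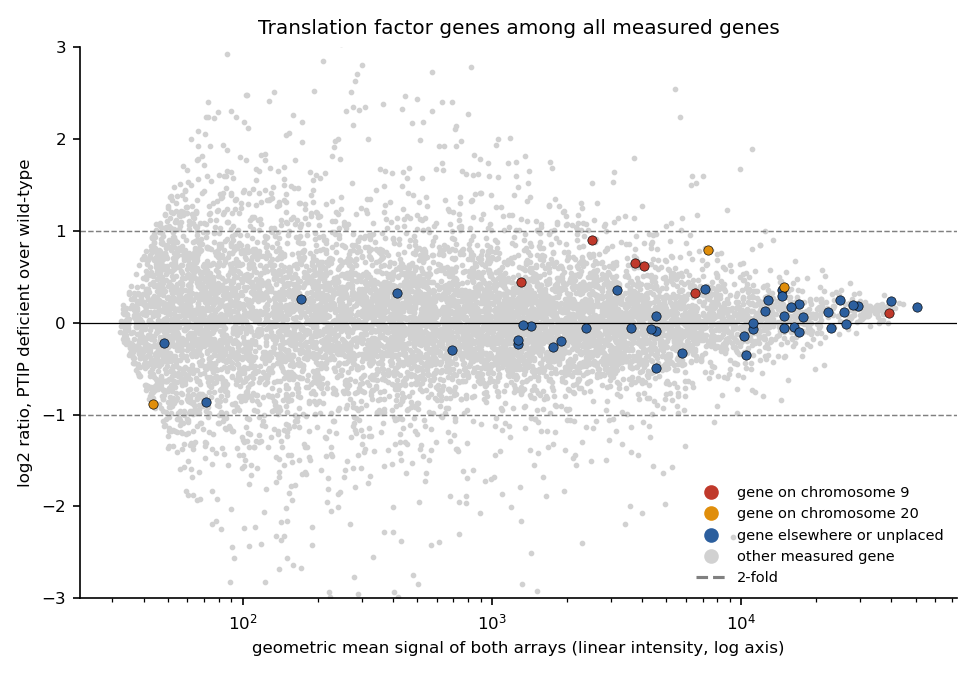
Log2 ratio (PTIP deficient over wild-type) against the geometric mean signal of both arrays (log axis) for all 9165 measured genes (grey) and the 53 measured translation factor genes (red on chromosome 9, orange on chromosome 20, blue elsewhere or unplaced); dashed lines mark 2-fold, and 59 genes beyond a log2 ratio of 3 in either direction are not drawn. All 53 translation factor genes lie between the dashed lines, most of them at the bright end, and the 4 genes that are at least 1.5-fold higher are on chromosomes 9 and 20.

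The factors that select the start codon and join the ribosomal subunits differed little. EIF1, which guards the fidelity of start codon choice, had a signal of 12829 in wild-type cells against 16415 in PTIP deficient cells, a 1.28-fold higher signal (log2 ratio 0.36) from its only probe set. EIF5, the factor that triggers GTP hydrolysis on eIF2, was at 22789 and 26988 (log2 ratio 0.24). Its 2 other measured probe sets gave 0.11 and, for the dimmest at 142.5 and 130.7, -0.13, which is also its value without _s_at probe sets, a kind that can detect several transcripts. EIF5B, the GTPase that joins the subunits, was at 1374 and 1169 (log2 ratio -0.23), and its second measured probe set, at 1038 and 977, gave -0.09. EIF1AX, which binds the decoding site, and EIF1B, a paralogue of EIF1, had log2 ratios of -0.07 and -0.03, so that 2 of these 5 genes were above 0 and 3 below. The probe sets of EIF1AX disagreed as well: 4 of 5 were measured, with log2 ratios from -0.60, from a probe set dim in both arrays, to 0.14.

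Among the genes of eIF2 and its exchange factor, EIF2B5 had the largest difference of all 53 genes. EIF2B5 (Entrez gene 424948), the catalytic epsilon subunit of eIF2B, had a signal of 1834 in wild-type cells against 3427 in PTIP deficient cells, which is 1.87-fold higher (log2 ratio 0.90) with its only probe set. The beta subunit gene EIF2B2 was at 6330 and 8142 (log2 ratio 0.36). The gamma and delta subunit genes EIF2B3 and EIF2B4 were nearly level, at log2 ratios of -0.06 and -0.09. The 4 measured subunits of the exchange factor thus had no common direction. Of the subunits of eIF2 itself, EIF2S2, the beta subunit, was at 12989 and 17051, or 1.31-fold higher (log2 ratio 0.39), and its second probe set gave a log2 ratio of 0.37. EIF2S1, the alpha subunit that stress kinases phosphorylate, was at 16478 and 15998, and EIF2S3, the gamma subunit that binds GTP, was at 26485 and 26186. With these probe sets both were within 0.05 of 0 on the log2 scale, and a second probe set of EIF2S3, at 608 and 556, gave -0.13. The alternative initiation factor gene EIF2A was at 5845 and 7300 (log2 ratio 0.32). EIF2D, which can deliver tRNA without GTP, was at 1351 and 1323 (log2 ratio -0.03). A second probe set of EIF2D, at 126.8 and 138.5 and thus dim in wild-type cells, gave 0.13. The 3 genes of this class with a log2 ratio of at least 0.32 besides EIF2B2 lie on chromosomes 9 and 20.

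The 4 kinases of eIF2 alpha were all measured and none was 1.5-fold apart. EIF2AK4, the sensor of uncharged tRNA known as GCN2, was at 765 in wild-type cells against 622 in PTIP deficient cells (log2 ratio -0.30), and a second probe set, dim in both arrays, gave -0.01. EIF2AK3, the endoplasmic reticulum kinase PERK, was at 157.0 and 187.8 (log2 ratio 0.26). EIF2AK1, the kinase that haem inhibits, was at 2442 and 2340 (log2 ratio -0.06), and EIF2AK2, the kinase that double-stranded RNA activates, was dim in both arrays, at 52.4 and 44.9. In this class 1 of 4 was above 0 and the median was -0.14.

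The eIF3 subunits, which form the scaffold that holds the small subunit, the ternary complex and eIF4G together, were balanced around 0. Of 10 measured subunits, 5 were above 0 and 5 below, with a median of 0.0019 and a range of -0.35 to 0.29. EIF3H was at 11774 in wild-type cells against 9253 in PTIP deficient cells, a 1.27-fold lower signal (log2 ratio -0.35). EIF3G, an RNA-binding subunit, was at 13137 and 16058 (log2 ratio 0.29), and EIF3L was at 11742 and 13917 (log2 ratio 0.25). The large subunits EIF3A and EIF3B had log2 ratios of -0.06 and -0.15. The loosely bound subunit EIF3J was at 0.08 on the log2 scale. The remaining subunits had log2 ratios of 0.20 (EIF3I), 0.06 (EIF3F), -0.06 (EIF3E, at 23343 and 22436) and -0.10 (EIF3M).

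In the cap-binding complex the cap-binding proteins differed in opposite directions. EIF4E, the major cap-binding protein, was at 5381 in wild-type cells against 3819 in PTIP deficient cells, a 1.41-fold lower signal (log2 ratio -0.49). Its 2 other measured probe sets were also lower, but dim in PTIP deficient cells, which leaves bounds: 308.4 and 108.0, or at least 2.34-fold lower against 131.5, and 164.3 and 86.5, or at least 1.25-fold lower. EIF4E2 (Entrez gene 424941), a homologue that binds the cap without eIF4G and represses translation in mammals, was at 3276 and 5025, which is 1.53-fold higher (log2 ratio 0.62). It had 1 probe set, of a kind that can detect several transcripts of a gene. EIF4E1B, at 95.6 and 52.7, was dim in both arrays, and EIF4E3 was at 34.3 in wild-type and under the floor in PTIP deficient cells, at 5.46, so no ratio is given for it. The scaffold genes followed no common direction: EIF4G1 was at 1122 and 1521 (1.36-fold higher, log2 ratio 0.44), EIF4G2, a scaffold that lacks the cap-binding protein's site, at 27655 and 31298 (log2 ratio 0.18), and EIF4G3 at 2027 and 1769 (log2 ratio -0.20). A second probe set of EIF4G2 gave -0.12. The RNA helicase gene EIF4A2 was at 37579 and 40382 (log2 ratio 0.10, and -0.08 with its other probe set), and EIF4A3, a helicase of the same family that marks exon junctions, was at 21471 and 23274 (log2 ratio 0.12). The helicase cofactor EIF4B was at 2791 and 3580 (log2 ratio 0.36), whereas the cofactor EIF4H was at 15202 and 14578 (log2 ratio -0.06, with 0.44 from a dimmer probe set at 182.4 and 247.6). Of the 10 measured genes of this class, 6 were above 0 and the median was 0.11, but under quantile normalization 5 of 10 were above 0 and the median was -0.03.

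The proteins that bind and restrain eIF4E showed small differences. EIF4EBP1, an inhibitor that TOR kinase inactivates, was at 14926 in wild-type cells against 16769 in PTIP deficient cells (log2 ratio 0.17). EIF4EBP2, its paralogue, was at 6504 and 5178, or 1.26-fold lower (log2 ratio -0.33). EIF4ENIF1, a nuclear importer of eIF4E, was at 1928 and 1611 (log2 ratio -0.26), and its second probe set gave -0.53.

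Both measured genes of the class of eIF5A and eIF6 were at least 1.5-fold higher in PTIP deficient cells, against 13.1% of all measured genes. EIF5A2 lies on chromosome 9 and EIF6 on chromosome 20, where 33.3% and 31.7% of all measured genes were higher by that factor. EIF5A was not among the 55 genes. EIF6 (Entrez gene 419140), which keeps the large ribosomal subunit from joining the small subunit too early and takes part in its maturation, was at 5568 in wild-type cells against 9649 in PTIP deficient cells. This is 1.73-fold higher (log2 ratio 0.79), and its second probe set, at 532.8 and 904.8, gave a log2 ratio of 0.76. EIF5A2 (Entrez gene 396545), a hypusine-containing factor that helps ribosomes past slow peptide bonds, was at 2984 and 4666, or 1.56-fold higher (log2 ratio 0.65), with its only probe set. EIF6 was the only gene among the 4 with a second probe set to compare.

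The bright elongation factor genes were all slightly higher as deposited, at log2 ratios between the median of the labelling controls and that of the hybridisation controls except for EEF1E1, which was at 0.07. EEF1A1, which delivers aminoacyl-tRNA, was at 47801 in wild-type cells against 53847 in PTIP deficient cells (log2 ratio 0.17), and its 4 measured probe sets, which include the manufacturer's probe sets for the start, middle and end of the transcript, gave log2 ratios from 0.15 to 0.22. EEF1D, an exchange factor subunit, was at 36629 and 43248 (log2 ratio 0.24), and EEF2, the translocase, was at 26313 and 30035 (log2 ratio 0.19). The 6 eEF1 and eEF2 genes other than the dim EEF1A2 ran from 0.07 to 0.24, with EEF1G at 0.12, EEF1B2 at 0.11 and, at the low end, EEF1E1, a factor of the tRNA synthetase complex. Under quantile normalization 4 of these 6 were above 0 and their range was -0.0044 to 0.09. EEF1A1 had the highest rank in both arrays, so that this scaling sets its ratio to 0 by construction. Over the 160 measured genes with a geometric mean signal of at least 20000, 142 were above 0 and the median was 0.15, and over the 10 translation factor genes among them 8 were above 0 and the median was 0.14. EEF1B2 was the gene of this class whose probe sets disagreed: a dim probe set (66.5 and 34.9) gave -0.93. EEF1A2, a paralogue of EEF1A1 known from neurons and muscle in mammals, was dim in both arrays, at 59.4 and 32.2.

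Of the 3 genes that modify elongation factors, 1 was dim. EEF2K, the kinase that inhibits eEF2, was at 95.3 in wild-type and under the floor in PTIP deficient cells, at 15.0, so no ratio is given. Both signals were dim. EEF1AKMT1, a lysine methyltransferase of eEF1A, was at 1361 and 1198 (log2 ratio -0.18) with its brightest probe set and at 688.0 and 338.2 with its other, a log2 ratio of -1.02. The second value is past 2-fold, and the size of this difference is not settled. EEF2KMT, a lysine methyltransferase of eEF2, was at 371.0 and 465.6 (log2 ratio 0.33), and its second probe set gave 0.59. ETF1, which encodes the release factor eRF1, was at 11173 and 11174, a log2 ratio of 0.00014.

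**Figure D3:**
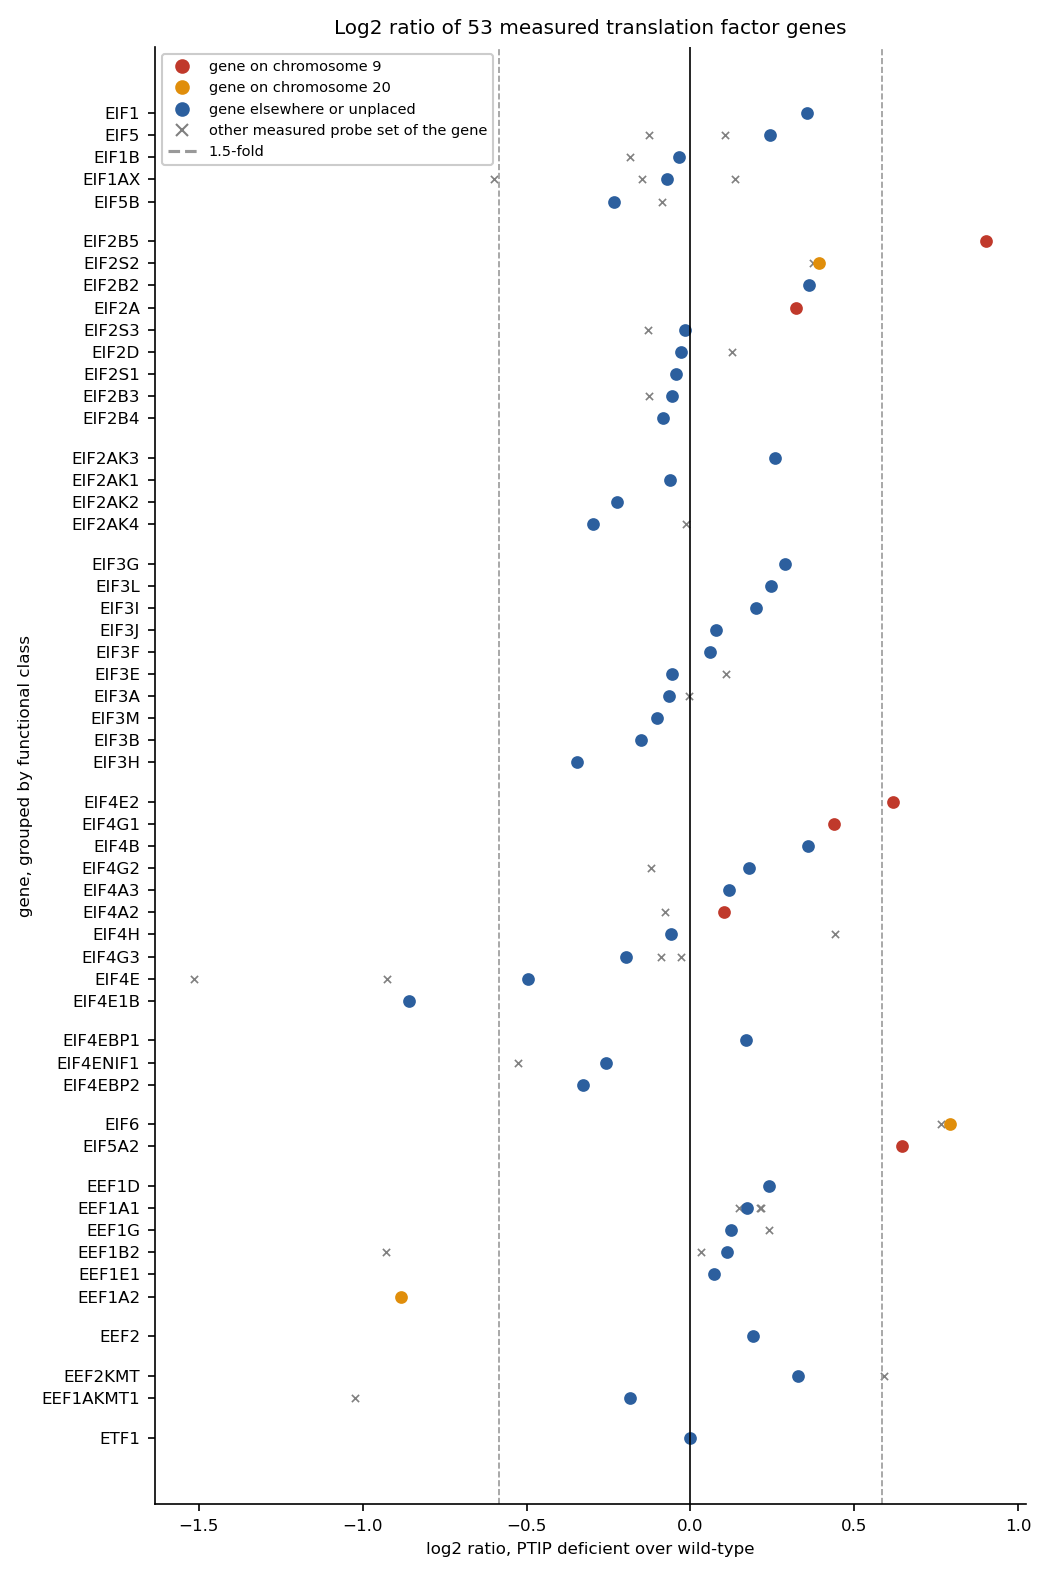
Log2 ratio (PTIP deficient over wild-type) of the 53 measured genes by functional class; circles are the brightest probe set (red on chromosome 9, orange on chromosome 20, blue elsewhere or unplaced), crosses are the other measured probe sets of the same gene and dashed lines mark 1.5-fold. The circles right of the dashed line are EIF2B5, EIF6, EIF5A2 and EIF4E2, EIF6 with both probe sets, and all probe sets of EIF4E lie left of 0.

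Different probe sets of a gene give the only repeat measurement here, and they cover probe error alone. Of 22 translation factor genes with at least 2 measured probe sets outside the manufacturer's controls, 17 had the same sign with their brightest and second brightest, and the SD of the difference between those log2 ratios was 0.34, against 0.50 over 4284 genes. Where both probe sets had signals of at least 131.5, 13 of 16 genes had the same sign and the SD was 0.28, against 0.32 over 2860 genes. The log2 ratios of EIF1 (0.36), EIF4B (0.36) and EIF3H (-0.35), each from 1 probe set, were larger in size than the corresponding SD of a single probe set over those 2860 genes, which was 0.23. Other genes with 1 probe set passed it too, among them EIF4G1 (0.44), EIF2B2 (0.36) and EIF4EBP2 (-0.33). No difference is read from passing 1 SD.

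The ratios were also read by the position of the genes in the genome. Chromosomes were taken from the GRCg7b RefSeq annotation, in which 52 of the 55 genes were found by Entrez identifier and 3 by symbol, and 1 gene, EEF1G, is not placed on a chromosome. The 6 genes on chromosome 9 were EIF2B5, EIF5A2, EIF4E2, EIF4G1, EIF2A and EIF4A2, and all 6 were above 0, with a median log2 ratio of 0.53. On chromosome 20 were EIF6, EIF2S2 and the dim EEF1A2. All 4 genes that were at least 1.5-fold higher lay on these chromosomes. These chromosomes were set apart after the ratios were seen. By that choice, 0 of the 44 measured genes elsewhere or unplaced were at least 1.5-fold higher. Of these 44 genes, 1 was at least 1.5-fold lower (the dim EIF4E1B) and 21 were above 0. Their median was -0.02 and their highest log2 ratio was 0.36, that of EIF2B2. Of all 8683 measured genes elsewhere or unplaced, 1041 were at least 1.5-fold higher and 1021 lower. Among these 8683 genes 51.2% were above 0, and the median was 0.01.

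The same chromosomes were higher over all their genes. Among 31 chromosomes with at least 20 measured genes, chromosomes 9 and 20 had the highest medians. On chromosome 9 the median log2 ratio was 0.37 over 264 measured genes, 78.8% of which were above 0, 33.3% higher by 1.5-fold and 5.68% lower. On chromosome 20 it was 0.37 over 218 genes, with 78.4% above 0, 31.7% higher by 1.5-fold and 7.34% lower. The next highest median was 0.20, on chromosome 25 (95 genes), and the lowest was -0.16, on chromosome Z (409 genes), which holds none of the 55 genes. The shift ran along both chromosomes: with the measured genes of each cut by position into 3 equal runs, the medians were 0.50, 0.32 and 0.33 on chromosome 9 and 0.44, 0.32 and 0.36 on chromosome 20. With the median of its chromosome subtracted, EIF2B5 had a log2 ratio of 0.53, EIF6 of 0.42, EIF5A2 of 0.27 and EIF4E2 of 0.24. No translation factor gene placed on a chromosome was then at least 1.5-fold higher, while the dim EEF1A2 and EIF4E1B were at -1.26 and -0.88. The share of all genes that pass this bar after the subtraction was not computed, so nothing is read from the count.

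EIF4E2, EIF2B5, EIF4G1 and EIF4A2 lie close to each other on chromosome 9, in a run of 16 measured genes that starts with EIF4E2 and ends with EIF4A2. Of the 12 other genes in that run, 10 were above 0 and 5 at least 1.5-fold higher, with a median log2 ratio of 0.49. Over all measured genes of chromosome 9 these shares were 78.8% and 33.3%. In the run, 1 of the 12 was at least 2-fold lower, at -1.10. EIF6 and EIF2S2 bound a run of 7 measured genes on chromosome 20. The 5 others in it were all above 0, against 78.4% of all measured genes of that chromosome, with a median of 0.67. Among the translation factor genes of chromosome 9, EIF4A2 had the smallest ratio. Its signal lay in the bright range of at least 20000. The 11 measured genes of chromosomes 9 and 20 in that range had a median log2 ratio of 0.23. They ran from 0.10, the value of EIF4A2 itself, to 0.57. Copy number was not measured, and the part of chromosomal position in the ratios of these genes was not tested.

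**Figure D4:**
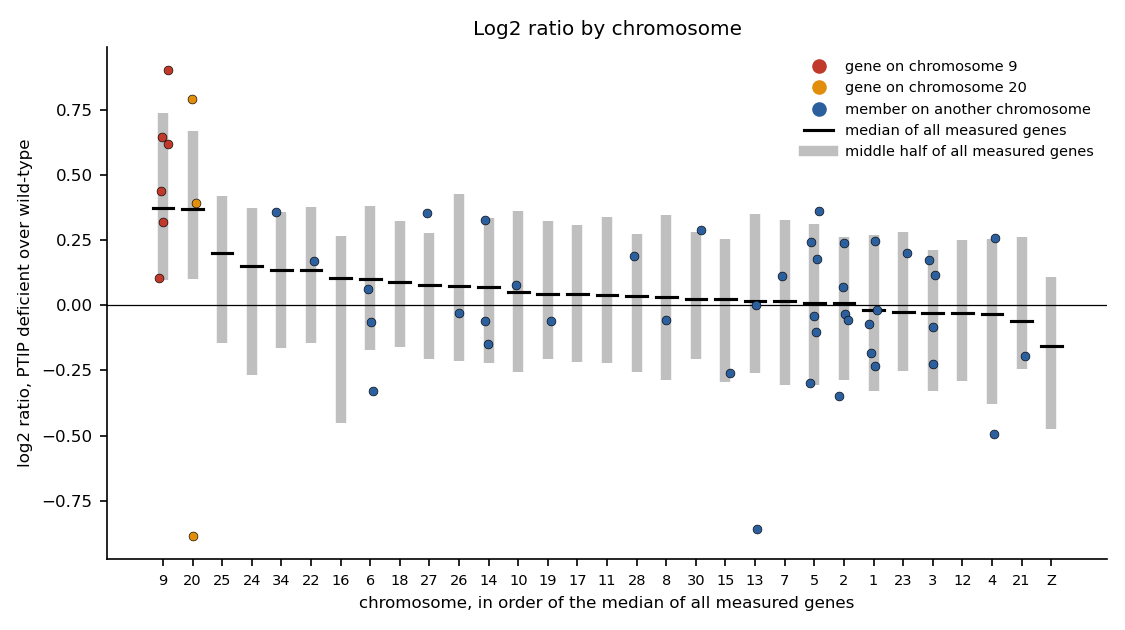
Log2 ratio (PTIP deficient over wild-type) by chromosome for the 31 chromosomes with at least 20 measured genes, ordered by median; black bars are the medians and grey bars the interquartile ranges of all measured genes, and points are the translation factor genes. Chromosomes 9 and 20 have the highest medians (0.37 each) and hold the 4 highest points, and EEF1A2 is the low point on chromosome 20.

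Other genes of the translation machinery were read in 7 lists. The 20 measured aminoacyl-tRNA synthetase genes and their scaffold genes, which charge tRNAs, stayed within 1.5-fold, with 8 of 20 above 0, a median of -0.03 and a range of -0.28 to 0.32. HARS1 was at 4746 in wild-type cells against 5912 in PTIP deficient cells (log2 ratio 0.32), IARS at 7182 and 5899 (-0.28) and GARS at 10027 and 12188 (0.28). Cytosolic ribosomal protein genes had a median of 0.15 with 60 of 66 above 0, against 52.6% of all measured genes. Most had a geometric mean signal of at least 20000, where 142 of all 160 measured genes were above 0, with a median of 0.15. Under quantile normalization 28 of the 66 ribosomal protein genes were above 0, at a median of -0.00034, and under loess 47 of 66, at 0.05. RPL22L1, a paralogue of RPL22 that lies on chromosome 9, was at 3162 and 6137 (1.94-fold higher, log2 ratio 0.96), with 0.28 as the lowest of its 3 measured probe sets, while RPS13 (38.8 and 127.1) and RPL3L (118.0 and 74.4) were dim in both arrays. As for the elongation factor genes, the count above 0 was lower under quantile normalization.

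Among 28 measured other translation and recycling factors, 5 were at least 1.5-fold lower and 1 higher, against 11.5% and 13.1% of all measured genes, with a median of -0.07. PDCD4, an inhibitor of the helicase eIF4A, was at 6167 in wild-type cells against 3108 in PTIP deficient cells, a 1.98-fold lower signal (log2 ratio -0.99), and its 3 measured probe sets gave -0.99 to -0.79. NCBP1, the large subunit of the nuclear cap-binding complex, was at 6717 and 3533, or 1.90-fold lower (log2 ratio -0.93). It lies on chromosome Z, the chromosome with the lowest median (-0.16). The other measured genes of this list on chromosome Z went both ways, with PELO at 0.40, DHX29 at -0.34 and the dim PAIP1 at -0.32. GCN1, the activator of the kinase encoded by EIF2AK4, was dim in both arrays (71.6 and 38.1). The 1 higher gene was GIGYF2, chosen after its values were seen, a partner of the protein that EIF4E2 encodes. It was at 219.4 and 337.2 (log2 ratio 0.62) and lies on chromosome 9, as does NCBP2, which was at -0.08. Of 8 measured mitochondrial translation factors, 5 were above 0 and the median was 0.11. GFM1, a mitochondrial elongation factor on chromosome 9, was at 4402 and 6665 (log2 ratio 0.60), and the release factor genes MTRF1L and MTRF1 had log2 ratios of 0.30 and 0.29, with -1.33 as the lowest of 3 probe sets of MTRF1.

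Some regulators upstream of these factors differed by more than 2-fold. Of 19 measured TOR and S6 kinase regulators, 2 were lower by 2-fold and none higher by 2-fold, against 4.46% and 5.03% of all measured genes, and 6 were above 0, against 52.6%, with a median of -0.11. DEPTOR, an inhibitor of TOR kinase, was at 808 in wild-type cells against 167.1 in PTIP deficient cells, a 4.84-fold lower signal (log2 ratio -2.27) with its only measured probe set. SESN1, a sestrin that restrains TOR complex 1, was at 2512 and 1106, or 2.27-fold lower (log2 ratio -1.18, and -1.09 with its second probe set). AKT1, a kinase that activates the TOR pathway, was at 649.2 and 1051, or 1.62-fold higher (log2 ratio 0.70). Of 8 measured targets of the integrated stress response, which follows eIF2 alpha phosphorylation, 4 were above 0 and the median was 0.09, so that the list had no common direction. PSAT1, a serine synthesis enzyme on chromosome Z, was at 726.5 and 258.0 (2.82-fold lower, log2 ratio -1.49), SLC7A11, a cystine transporter, was at 130.1 and 253.0 (at least 1.92-fold higher against 131.5), and MTHFD2, a mitochondrial folate enzyme, was at 4918 and 7279 (log2 ratio 0.57). ATF4, the transcription factor of this response, chosen after its values were seen, was at 11227 and 13159 (log2 ratio 0.23). The 10 measured housekeeping genes had a median of 0.08 with 8 above 0 (4 of 10 under quantile normalization, at -0.02, and 5 of 10 under loess). Their largest differences were B2M, dim in both arrays (32.0 and 83.1), TFRC on chromosome 9 (8719 and 12004, log2 ratio 0.46) and GUSB (3566 and 2771, log2 ratio -0.36).

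**Figure D5:**
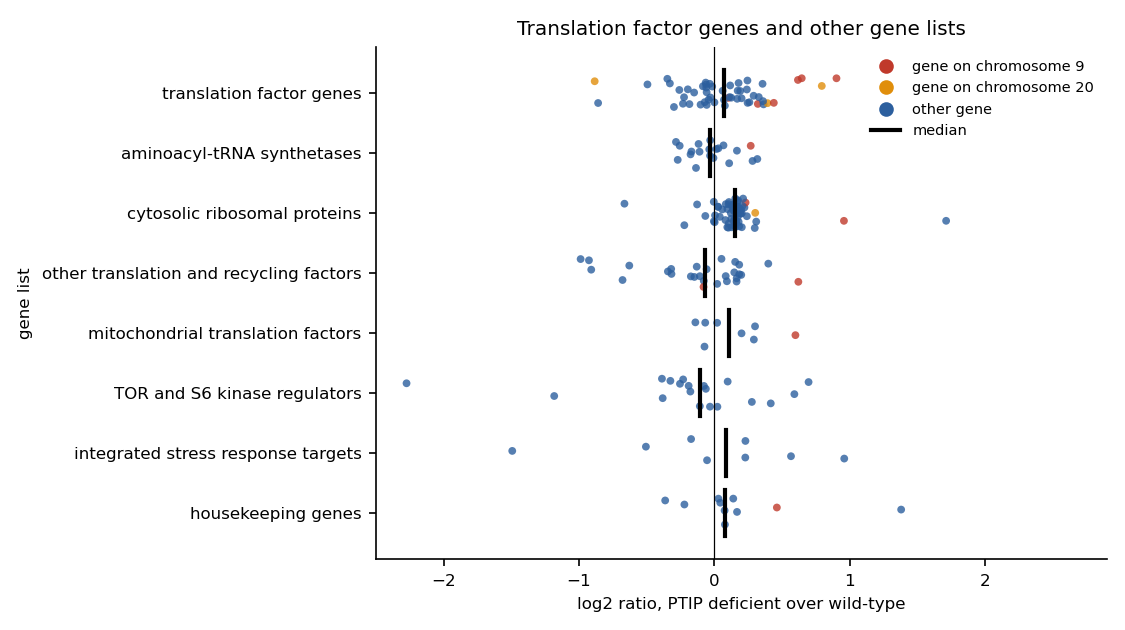
Log2 ratio (PTIP deficient over wild-type) of each measured gene in the translation factor set and in 7 other lists (1 point per gene, red on chromosome 9, orange on chromosome 20, blue elsewhere or unplaced; black bars are medians). The translation factor genes have no value beyond 0.90 in either direction, the ribosomal protein genes cluster around 0.15, and DEPTOR, at -2.27, is the lowest point.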

How the data were processed

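The authors processed the scans with GCOS, per the submitters' processing notes, and deposited linear signal intensities for 38535 probe sets; the sources used here give neither its version nor its algorithm. Trimmed to percentiles 2 to 98, the deposited intensity values averaged 499.9 in both arrays, so they had been scaled to a common target, and a difference in total RNA per cell cannot be seen. Detection calls were not used here.

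Probe sets were named from the platform annotation: 27178 carried 1 symbol and 177 several, which were not named. Log2 ratios used the deposited scaling in Python 3.11.15 with pandas 2.3.3; 0 columns were left unused. Of the 96 manufacturer control probe sets, those that carry a gene symbol were kept for that gene (EEF1A1, ACTB and GAPDH) and all were left out of the floor. 9165 genes were measured in both arrays. The floor was reached by 59.6% of probe sets on the wild-type array and by 60.4% on the PTIP deficient array, and the number of arrays limits the precision. The calculation was tested on simulated data with planted changes larger than 2-fold and calls at the 2-fold bar. The noise set there was smaller than the SD of a single probe set in these data. Calls at 1.5-fold were not simulated, so the test does not cover them. The alternatives were 3 other scalings, 3 floors and 2 rules for the probe set of a gene. By rule, PAXIP1 and any of the 55 genes could be named, in fuller detail the brightest and most different of each class, those 1.5-fold apart and those whose probe sets disagreed in sign, and of each other list the 3 most different genes. The 1.5-fold bar, the genes and the lists were chosen with earlier results of these data known.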

Additional observations from a re-analysis of the deposited data

How the results depend on the processing

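No paired analysis was possible because each genotype has 1 array and the labels give no replicate numbers; for the same reason no array could be left out. The 4 genes at least 1.5-fold higher, EIF2B5, EIF4E2, EIF5A2 and EIF6, were the same under the other scalings, the other floors and the mean of probe sets. The higher floors could not change them, since all their signals lie above 131.5. The mean of probe sets could change EIF6 alone, the only one with a second measured probe set. Without _s_at, _x_at and _a_at probe sets EIF4E2, which has no other, drops out. No called difference changed its sign. The median of all 53 genes was -0.0044 under quantile normalization, -0.010 under loess and -0.034 without those probe sets (41 genes), so its direction is not settled. Chosen after seeing the data, the median was -0.023 without chromosomes 9 and 20 and -0.018 with the chromosome medians subtracted, and the count at least 1.5-fold higher was 0 under both; 1 gene was at least 1.5-fold lower without these chromosomes, and 1 gene, EEF1A2, at least 2-fold lower than its chromosome. The count at least 1.5-fold lower was 0 with a floor at percentile 60 or at 131.5, and 4 with the mean of probe sets (adding EIF4E and EEF1AKMT1), without _s_at, _x_at and _a_at probe sets (adding EIF1AX and EEF1AKMT1) or without a floor (adding EEF2K and EIF4E3); the count at least 2-fold lower was 1 and 2 under the last pair. Leaving out the manufacturer's control probe sets gave EEF1A1 a log2 ratio of 0.22.

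By class, the cap complex had a median of -0.025 under quantile normalization. Without _s_at, _x_at and _a_at probe sets the class medians were 0.13 for eIF2 and its exchange factor, -0.090 for the cap complex, -0.046 for the eIF4E inhibitors and -1.02 for the elongation factor modifiers (1 gene), and without a floor -0.18 for the latter. For the other lists, the medians without _s_at, _x_at and _a_at probe sets were -0.12 for aminoacyl-tRNA synthetases, 0.25 for mitochondrial factors and -0.0056 for TOR regulators. For stress response targets the median was 0.23 without these probe sets and -0.054 with a floor at 131.5. Ribosomal proteins had medians of -0.00034 under quantile normalization and 0.045 under loess. With both higher floors 0 of them were higher by 2-fold, 1 higher by 1.5-fold and 0 lower by 1.5-fold; with the mean of probe sets the first was 0 and the second 1, without a floor the last was 0, and without _s_at, _x_at and _a_at probe sets 2 were 2-fold and 3 were 1.5-fold lower, with 1 synthetase 1.5-fold lower. Of the other factors 1 was 2-fold lower under median centring (PDCD4), with the mean of probe sets (NCBP1) and without _s_at, _x_at and _a_at probe sets (NCBP1). Mitochondrial factors had 0 at least 1.5-fold higher under median centring, and TOR regulators 1 under median centring and quantile normalization. For stress response targets, 0 were at least 1.5-fold higher with a floor at 131.5, 2 with the mean of probe sets or without _s_at, _x_at and _a_at probe sets, and 3 without a floor, where 2 were higher by 2-fold and 2 lower by 1.5-fold; 0 were 1.5-fold or 2-fold lower without _s_at, _x_at and _a_at probe sets. No housekeeping gene (0 of 9) was 1.5-fold or 2-fold higher with either higher floor. The causes were not tested, beyond the fewer genes that higher floors and the removal of probe sets leave.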
